A study of Mus musculus with 33 samples.

Results

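The costimulatory and coinhibitory molecules described here are 10 genes whose products pass positive and negative signals between T cells and the cells that present antigen to them. They were taken by symbol, not by any measured value: Cd80, Cd86, Icosl, Cd274 and Pdcd1lg2 as the ligands, and Cd28, Icos, Cd40lg, Pdcd1 and Btla as the molecules of the thymocyte side. All 18 probe sets that carry these symbols were read, of 45037 on the array. All 10 genes had a probe set that passed the filter on weak signal and stood among the 13463 genes tested.

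Expression was measured on 33 Affymetrix arrays of thymus from C57BL6 mice, which the labels call male and 4 to 6 weeks old, with no treatment or genetic change stated. Microdissected tissue gave 23 arrays: whole medulla (n = 7), whole cortex (n = 7), and the subcapsular, central and perimedullary regions of the cortex (n = 3 each). Sorted cells gave 10 arrays. Medullary thymocytes (n = 5) were gated as CD45+ cells with high CD3, and cortical thymocytes (n = 5) as CD45+ cells without CD3 or with little of it that carried CD90 or CD117. The sort therefore separates the thymocytes by maturity, and a dissected region holds thymocytes together with epithelium, dendritic cells, macrophages and B cells. The RNA kit differed between tissue and sorted cells, and where these are compared the effect of the kit cannot be told apart from that of the source. Replicates are titled as biological. Which animal each dissected region came from is not stated, so some regions may share an animal. The p-values over regions take no account of this and may then be too small or too large.

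Values are array signals on the linear scale deposited by the authors, each scaled within its own array, with array medians from 71.9 to 163. Precision is limited by how many arrays a group has. The upper tail of the signal was wider on 13 arrays, with 0.1% of their probe sets above 42000: whole medulla 1 to 5, whole cortex 1 to 5 and medullary thymocytes 1 to 3. Beside the labels, 1 marker gene was read in tissue and 1 in sorted cells, both chosen with their values known. Aire, the regulator of self-antigen expression in medullary epithelium, had 2333 ± 231 in whole medulla and 25.3 ± 24.2 in whole cortex (SD), and C1qa, a complement gene of macrophages, lay at 5.26 ± 2.04 in medullary and 4.97 ± 2.93 in cortical thymocytes. Levels on subregion arrays were compared only among themselves, because thymocyte genes stood at other levels there than on whole cortex arrays: Cd3d, a chain of the T cell receptor complex, averaged between 3539.7 and 3896 in the subregions and 25040.5 in whole cortex. Among the members, Icos averaged between 668 and 3975 in the subregions and 453 in whole cortex, and Cd274 between 633 and 1326, against 367. All subregion means of Cd28 and Cd40lg were below that of whole cortex, and those of the other members lay on both sides. The cause was not tested.

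A T cell needs a second signal beside that of its antigen receptor. CD80 and CD86 on antigen-presenting cells give it through CD28, and the same ligands bind the inhibitory receptor CTLA4. ICOS ligand binds ICOS, a relative of CD28, and PD-L1 (Cd274) and PD-L2 (Pdcd1lg2) bind the inhibitory receptor PD-1 (Pdcd1). BTLA is an inhibitory receptor of lymphocytes that binds the herpesvirus entry mediator, and CD40 ligand on activated T cells engages CD40 on B cells, dendritic cells and epithelium. In the thymic medulla these signals take part in the deletion of self-reactive thymocytes and in the formation of regulatory T cells.

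Several of the genes are neighbours in the genome. In the RefSeq table of GRCm38.p6, Cd28, Ctla4 and Icos follow each other on chromosome 1, Cd274 and Pdcd1lg2 are adjacent on chromosome 19, and Btla lies beside Cd200 on chromosome 16. RefSeq promoter sequences were matched for 6 of the 10 genes. Those of 4 genes are printed: Icosl, which had the largest fold change of the members in tissue, the adjacent pair Cd274 and Pdcd1lg2, and Btla, which had the largest in sorted thymocytes. Each run is the 250 bases before the annotated start, 5′ to 3′ on the gene's strand, in lower case, with a match to the searched interferon response core (letters GAAANNGAA, either strand) in capitals. The positions are chr10:78069118-78069367 (+) for Icosl, chr19:29367188-29367437 (+) for Cd274, chr19:29410669-29410918 (+) for Pdcd1lg2 and chr16:45224087-45224336 (+) for Btla.
Icosl: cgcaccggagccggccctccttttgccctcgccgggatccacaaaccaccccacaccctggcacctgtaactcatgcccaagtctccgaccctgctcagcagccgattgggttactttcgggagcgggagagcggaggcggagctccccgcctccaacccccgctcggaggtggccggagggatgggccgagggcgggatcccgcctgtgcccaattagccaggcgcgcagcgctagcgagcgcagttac
Cd274: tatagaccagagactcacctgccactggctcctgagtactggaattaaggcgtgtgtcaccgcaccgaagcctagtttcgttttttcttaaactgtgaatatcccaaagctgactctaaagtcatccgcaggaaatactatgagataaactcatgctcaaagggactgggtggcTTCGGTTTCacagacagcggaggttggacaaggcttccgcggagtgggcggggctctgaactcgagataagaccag
Pdcd1lg2: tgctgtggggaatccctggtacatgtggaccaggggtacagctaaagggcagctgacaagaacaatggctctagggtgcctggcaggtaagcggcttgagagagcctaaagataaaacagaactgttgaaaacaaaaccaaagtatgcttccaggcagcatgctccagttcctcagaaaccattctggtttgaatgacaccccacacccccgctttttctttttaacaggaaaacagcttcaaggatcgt
Btla: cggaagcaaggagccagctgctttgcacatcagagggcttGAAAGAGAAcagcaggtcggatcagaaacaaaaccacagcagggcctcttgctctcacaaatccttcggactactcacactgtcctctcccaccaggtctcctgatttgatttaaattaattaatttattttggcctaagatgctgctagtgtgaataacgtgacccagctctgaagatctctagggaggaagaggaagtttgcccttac
The core stood once in the Cd274 promoter, as TTCGGTTTC from base -76 to -68 on the reverse strand, and once in that of Btla, as GAAAGAGAA from -210 to -202. It was found in 7.13% of all 32851 promoters of this length. A STAT gamma-activated site (TTCNNNGAA) stood in 7.02% and a kappaB-like site (GGGANTTCC) in 1.43% of all promoters. Neither stood in these windows of Cd80, Icosl, Cd274, Pdcd1lg2, Pdcd1 or Btla. A match is a description of the letters and shows no binding.

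The first comparison asked how the molecules differ between whole medulla and whole cortex as tissue. All 5 ligands, Icos and Btla rose in the medulla, and Cd28, Cd40lg and Pdcd1 were not called. Calls rest on limma and require a Benjamini-Hochberg adjusted p below 0.05 over all genes tested and a change of at least 2-fold, or 1 on the log2 scale. In this comparison 18.7% of all genes were called higher and 5.39% lower, against 7 and 0 of the 10 members. The median log2 fold change of the members was 1.55, and that of all genes 0.11, which quantile normalization moved to -0.02. In mixed tissue, fewer cells of a type and less RNA per cell cannot be told apart. Fold changes are differences of mean log2(signal + 26.2), which makes those of weak genes smaller than the ratio of their signals.

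Icosl, the ligand of ICOS, had between 496 and 1110.4 in the 7 whole medulla arrays (median 903) and between 7.72 and 140.5 in the 7 whole cortex arrays (median 74.6). The groups did not overlap, and 1 medulla array lay well below the other 6. The log2 fold change of 3.43 (adjusted p = 1.2e-11, SE 0.32) was the largest among the members. In the sorted cells its signal was weak, at 12.5, 75.6, 18.3, 109.5 and 131 in medullary thymocytes and at 12.6, 14.9, 60.5, 61.5 and 37.7 in cortical thymocytes. These overlap, and the difference of 0.45 was not called (95% interval -0.31 to 1.21, adjusted p = 0.36). The second Icosl probe set did not show the difference between the tissues. It had 121 ± 54.6 in whole medulla and 115 ± 25.7 in whole cortex (log2 fold change -0.0037), and it stood above the array median on 2 of 7 medulla arrays. Averaging both probe sets gave 1.71, still called.

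Pdcd1lg2, which encodes the PD-1 ligand PD-L2, had between 475 and 832 in whole medulla (median 654), against between 70.5 and 192 in whole cortex (median 102). Every medulla array lay above every cortex array, with a log2 fold change of 2.27 (adjusted p = 3.3e-14, SE 0.17). Medullary thymocytes had 179, 144, 263, 230.5 and 217, and cortical thymocytes 71.3, 59.7, 97.3, 98.2 and 88.2. These groups did not overlap either, and the log2 fold change was 1.08 (SE 0.2, adjusted p = 2.4e-05), just past the 2-fold limit. Under quantile normalization it was 0.82 and no longer called.

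Cd274, which encodes PD-L1, had between 882 and 1289 in whole medulla (median 1188), against between 219.7 and 479.7 in whole cortex (median 364). The tissue groups were apart, with a log2 fold change of 1.62 (adjusted p = 2.2e-10, SE 0.17). It stood above the array median on all 10 arrays of sorted cells. Medullary thymocytes had 565, 623, 659.6, 693 and 590.1, and cortical thymocytes 193, 226, 243, 209 and 219. The log2 fold change there was 1.42 (SE 0.2, adjusted p = 3e-07), again with no overlap.

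Cd86, a ligand of CD28 and CTLA4, had between 853 and 1337 in whole medulla (median 1029.6), against between 273 and 440.5 in whole cortex (median 351). The log2 fold change was 1.48 (SE 0.15, adjusted p = 6.2e-11), and the groups did not overlap. Medullary thymocytes had 201, 243, 162, 118 and 142, all above their array medians, and cortical thymocytes had 3.58, 17.9, 3.2, 28.3 and 14.7, all below theirs. That log2 fold change was 2.33 (SE 0.17, adjusted p = 7.2e-14), and the one in tissue minus this was -0.86 (adjusted p = 0.0033), below the 2-fold limit. Both values depend on the offset, since all cortical thymocyte arrays are weak: with the smaller offset of 6.55 they were 3.29 and -1.77 (adjusted p = 5.7e-05), and the second was then called lower. The second Cd86 probe set gave 1.59 in tissue and 2.25 in sorted cells. Dendritic cell markers in medullary thymocytes summed to between 385 and 711 over 10 genes and to between 159 and 366 in cortical thymocytes. Of the 10, Zbtb46, a transcription factor of conventional dendritic cells, was called higher, with 121 ± 41.2 in medullary and 38.1 ± 22.0 in cortical thymocytes (log2 fold change 1.22, adjusted p = 4.2e-05). Itgax, which encodes CD11c, had 101 ± 24.4 in medullary and 47.1 ± 29.4 in cortical thymocytes (0.88, adjusted p = 0.003), under the 2-fold limit. The other 8 had adjusted p-values of at least 0.238, and Flt3, Batf3, Fscn1, Ccl22, Ccl17 and Siglech were below the array median on all 10 arrays. The part of other cells in the Cd86 signal was not tested.

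Cd80, the other shared ligand of CD28 and CTLA4, had between 161 and 307 in whole medulla (median 252), against between 22.2 and 294 in whole cortex (median 73.3). The groups overlapped through 1 cortex array at 294. The log2 fold change was 1.38 (SE 0.29, adjusted p = 8.9e-05). It was 0.42 (adjusted p = 0.41) without the 13 arrays with a wide tail, which leaves 2 arrays of each tissue, among them the high cortex array. The second Cd80 probe set (mean over all arrays 115, against 117 for the used one) gave a larger difference. It had between 389 and 510.2 in whole medulla and between 4.6 and 84.1 in whole cortex, with a log2 fold change of 3.40 (SE 0.24), and the mean of both gave 2.39. This second probe set stood above the array median on all 7 whole medulla arrays and on no other array. It passed the filter only through the group where it is high, so its difference is no separate support for the call. Both probe sets were below the array median on all 10 arrays of sorted cells. The used one had 28.4, 88.9, 13.9, 61.6 and 21.0 in medullary thymocytes, and 15.01, 41.1, 55.1, 10.98 and 44.8 in cortical thymocytes, a log2 difference of 0.16 (95% interval -0.53 to 0.85). The other 2 of its 4 probe sets did not pass the filter.

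**Figure D1:**
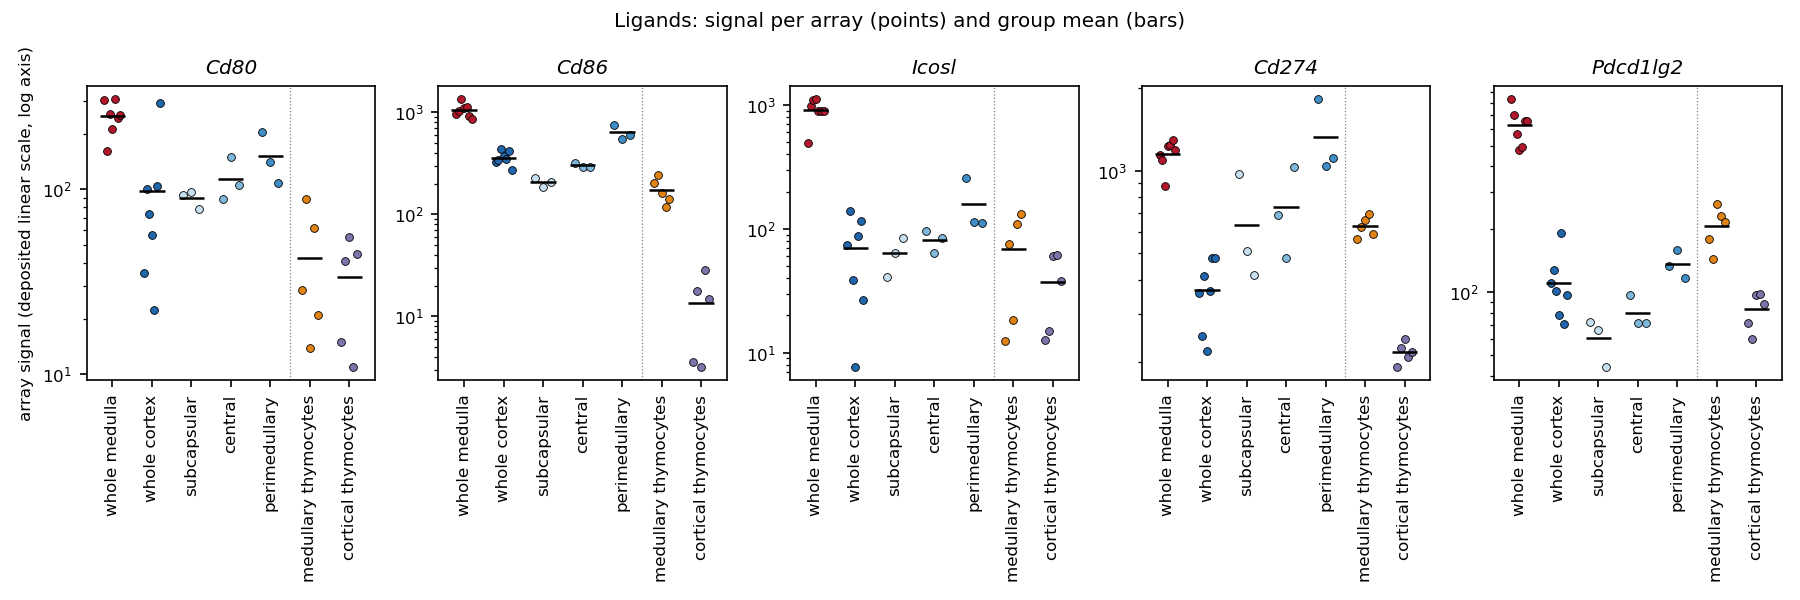
Signal of the 5 ligands on each array (points, log axis, deposited linear signal) with the group mean (bar), 1 panel per gene, in whole medulla, whole cortex, the 3 cortex subregions and both kinds of sorted thymocytes. Whole medulla is apart from whole cortex for Cd86, Icosl, Cd274 and Pdcd1lg2, while Cd80 overlaps through 1 cortex array at 294.

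The same comparison on the thymocyte side asked which molecules differ between medullary and cortical thymocytes after sorting. Icos, Btla, Pdcd1 and Cd40lg rose in medullary thymocytes together with the ligands Cd86, Cd274 and Pdcd1lg2, and Cd28, Cd80 and Icosl were not called. Of all genes, 7.69% were called higher and 6.31% lower, against 7 and 0 of the 10 members. The 7 include Cd40lg, whose weak signal passed the filter mainly through medullary thymocyte arrays. The median log2 fold change of the 10 members was 1.26, and that of all genes 0.07.

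Btla, the inhibitory receptor, had 4170.1, 3936, 3908, 4295 and 3800.0 in medullary thymocytes, and 283, 319.7, 302, 359 and 287 in cortical thymocytes. The log2 fold change of 3.59 (adjusted p = 1.2e-26, SE 0.095) was the largest of the members in sorted cells, and no array overlapped. Tissue showed a like contrast, with between 3342 and 4141 in whole medulla (median 3592), against between 407 and 561 in whole cortex (median 446). There the log2 fold change was 2.94 (SE 0.08, adjusted p = 4.4e-26).

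Icos, the inducible costimulator, had 4684, 4078, 4318, 3966 and 4083 in medullary thymocytes, and 418, 409.8, 474, 395 and 345 in cortical thymocytes. The log2 fold change was 3.29 (SE 0.1, adjusted p = 1.5e-24). Whole medulla had between 2897 and 3486 (median 3246), against between 332 and 564 in whole cortex (median 441), a log2 fold change of 2.77 (adjusted p = 1.3e-24, SE 0.086). Neither pair of groups overlapped. Its other 2 probe sets, the brighter first, gave 2.11 and 2.31 in tissue and 2.73 and 2.76 in sorted cells, called in each case.

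Pdcd1, which encodes PD-1, had 666, 726, 910.5, 872 and 1002 in medullary thymocytes, and 353, 311, 354, 295 and 356 in cortical thymocytes. These did not overlap, and the log2 fold change was 1.25 (SE 0.13, adjusted p = 3.7e-10). In tissue the groups overlapped, with between 395 and 647 in whole medulla (median 543) and between 311 and 453 in whole cortex (median 338). The tissue difference of 0.55 (SE 0.11, adjusted p = 5e-05) passed the p threshold but not the 2-fold limit.

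Cd28, the receptor of CD80 and CD86, stood above the array median on all 33 arrays. Medullary thymocytes had 13913, 20588, 13462, 11957 and 13111, and cortical thymocytes 8717, 8522, 9008, 8993 and 9625. Every medullary array lay above every cortical one, but the log2 fold change of 0.68 (adjusted p = 1.4e-05, SE 0.12) was below the limit. Whole medulla had between 5618 and 9792 (median 6097), against between 5747 and 6812 in whole cortex (median 6481). These overlapped, with a log2 fold change of 0.04 (95% interval -0.16 to 0.25). The second Cd28 probe set went the other way in tissue, with 3307 ± 307 in whole medulla and 4102 ± 268 in whole cortex (log2 fold change -0.31, adjusted p = 0.00017), also below 2-fold.

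Cd40lg, which encodes the ligand of CD40, had a weak signal. Its only probe set stood above the array median on 2 of 5 medullary thymocyte arrays, on 1 of 7 whole cortex arrays and on none of the other arrays, so it passed the filter by exactly 3 arrays. Medullary thymocytes had 19.8, 127, 39.2, 58.1 and 168, and cortical thymocytes 11.1, 13.5, 14.9, 15.7 and 10.5. These do not overlap, and the log2 fold change was 1.27 (SE 0.37, adjusted p = 0.0056). Every cortical thymocyte array lay below the offset, so the size of this change depends on the offset. The gene passed the filter mainly through arrays of the group then called higher, so this call leans on the arrays that admitted it. With no filter the call was kept. Whole medulla had between 13.0 and 65.1 (median 49.7), against between 9.24 and 136 in whole cortex (median 31.9), with a log2 fold change of 0.01 (95% interval -0.63 to 0.64).

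**Figure D2:**
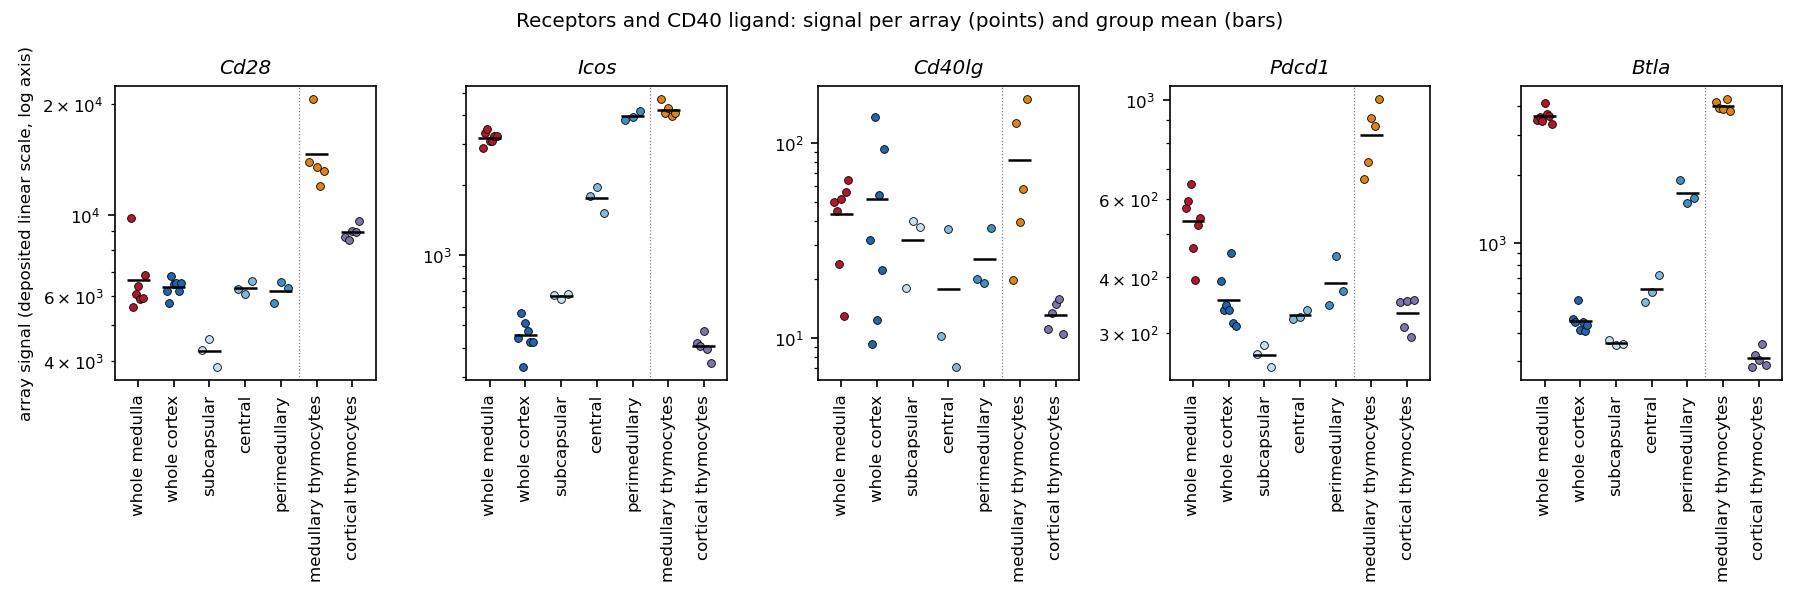
Signal of Cd28, Icos, Cd40lg, Pdcd1 and Btla on each array (points, log axis, deposited linear signal) with the group mean (bar), in the same 7 groups. Icos and Btla are high in whole medulla and medullary thymocytes and low in whole cortex and cortical thymocytes, while Cd28 and Cd40lg overlap between the tissues.

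Whether the compartment difference was larger in tissue than in the sorted thymocytes was tested as an interaction, the tissue difference minus the thymocyte difference. Icosl (2.97, SE 0.49, adjusted p = 1.1e-05), Cd80 (1.22, SE 0.45, adjusted p = 0.035) and Pdcd1lg2 (1.19, SE 0.26, adjusted p = 0.00047) were called higher. All 3 are ligands, but the ligands Cd86, with a negative value, and Cd274 were not called. Cd40lg was called lower (-1.26, SE 0.48, adjusted p = 0.044), which rests on its thymocyte difference at weak signal. Of all genes, 12.8% were called higher and 2.22% lower, against 3 and 1 of the members. The interaction was also negative for Icos (-0.53), Cd28 (-0.63), Btla (-0.66), Pdcd1 (-0.70) and the ligand Cd86 (-0.86), each with an adjusted p of at most 0.0033 but below the 2-fold limit. With the smaller offset Cd86 was called lower (-1.77).

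Pdcd1lg2 and Icosl were called in this interaction under every alternative that kept their probe set or averaged it with others. The Icosl value was -0.34 with the second probe set alone. Cd80 and Cd40lg kept their calls under fewer settings, and neither passed the stricter filter. With the smaller offset they had 1.40 (adjusted p = 0.072) and -1.77 (adjusted p = 0.057) and were not called. Leaving out 1 array gave 1.03 to 1.49 for Cd80 and lost the call in 10 of 24 fits, and gave -1.52 to -0.998 for Cd40lg and lost it in 12 of 24. Without the arrays with a wide tail the Cd80 value was 0.24 (adjusted p = 0.78). Its second probe set gave 3.56 (SE 0.37) on all arrays. That probe set passed the filter only through whole medulla arrays, so its value is no separate support for the call.

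**Figure D3:**
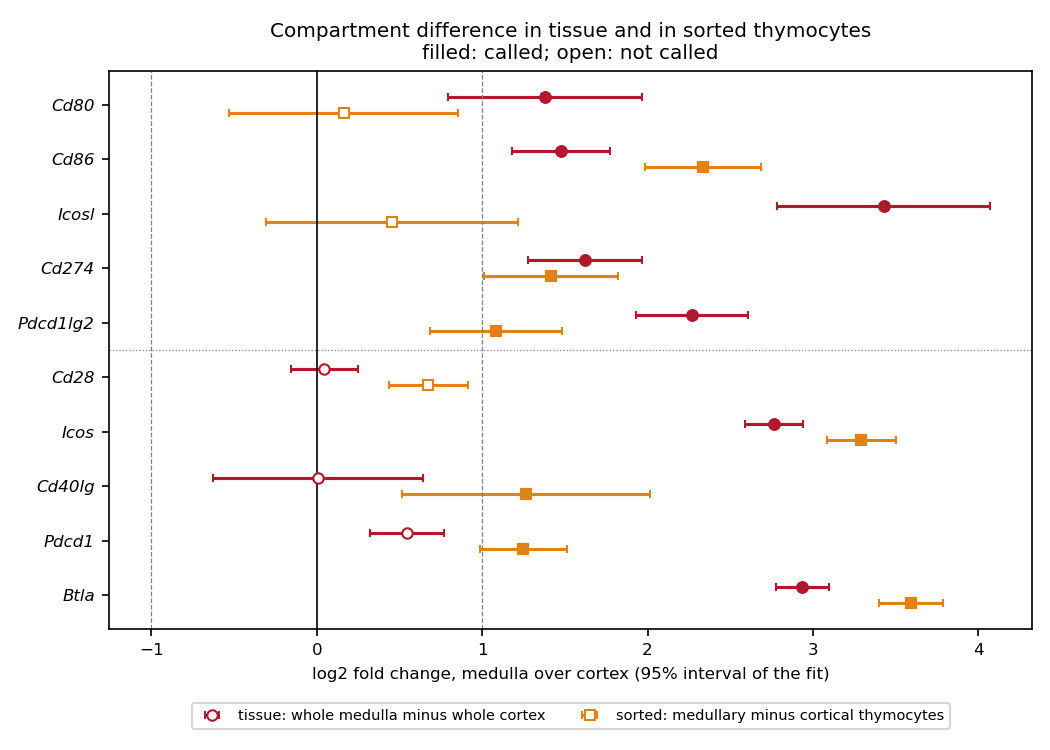
Log2 fold change of each gene with the 95% interval of the fit (lines), for whole medulla minus whole cortex (circles) and for medullary minus cortical thymocytes (squares), with filled symbols where the gene was called and dashed lines at the 2-fold limit. Icosl stands at 3.43 in tissue and 0.45 in thymocytes, whereas Icos and Btla are high in both.

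The probe sets of 5 members could be set beside each other by direction. Those of Icos and Cd86 gave the same direction in both comparisons, and those of Cd80 differed in size in tissue. Those of Icosl and Cd28 did not have the same sign in tissue. No probe set of another gene was set against them, since levels of different probe sets are not on a common scale.

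**Figure D4:**
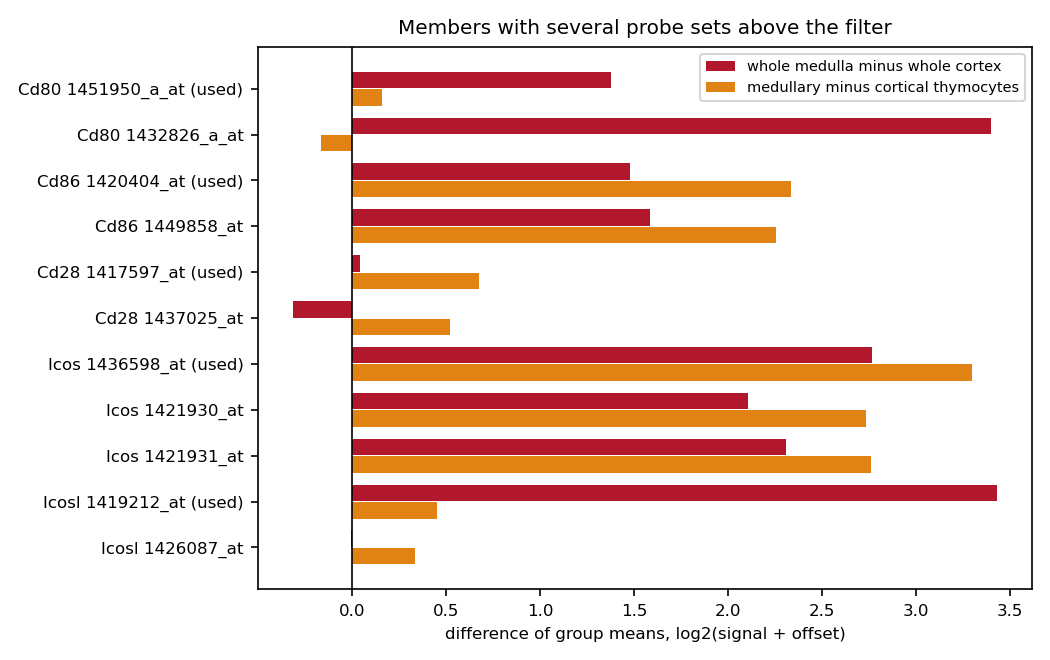
Difference of group means on the log2(signal + offset) scale for each probe set above the filter of Cd80, Cd86, Cd28, Icos and Icosl (rows), for whole medulla minus whole cortex (red) and medullary minus cortical thymocytes (orange). The probe sets of Icosl stand at 3.43 and -0.0037 in tissue, and those of Cd80 at 1.38 and 3.40.

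Next, each whole tissue was set against the sorted cells of the same name. The labels do not say that these cells came from the dissected regions. In whole medulla against medullary thymocytes, Icosl (3.48, SE 0.35), Cd86 (2.45, SE 0.16), Cd80 (2.08, SE 0.32) and Pdcd1lg2 (1.49, SE 0.18) rose in the tissue, and Cd28 fell (-1.13, SE 0.11). Adjusted p-values were at most 8e-07 for these 5. The second Icosl probe set gave 0.29 (adjusted p = 0.24) and was not called. Of all genes, 19.5% were called higher and 1.23% lower. For all 5 the arrays of the groups did not overlap: Cd28, for example, lay between 5618 and 9792 in whole medulla and between 11957 and 20588 in medullary thymocytes. Cd274 was at 1153 ± 137 in whole medulla and 626 ± 51.6 in medullary thymocytes (0.85, adjusted p = 0.00022), apart but under 2-fold. Icos (-0.40), Pdcd1 (-0.62) and Btla (-0.15) were within 2-fold of the sorted cells, though the dimmest of the 3 Icos probe sets gave -1.23 (adjusted p = 3.1e-07) and was called lower. The Cd28 call did not hold without medullary thymocyte array 2, the highest at 20588, where the value was -0.997. It also fell below 2-fold under quantile normalization (-0.94), without the arrays with a wide tail (-0.97) and with its second probe set (-0.88).

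In whole cortex against cortical thymocytes, only Cd86 of the 10 members was called. It had 359 ± 55.8 in whole cortex and 13.5 ± 10.5 in cortical thymocytes, a log2 fold change of 3.30 (adjusted p = 6.9e-19, SE 0.16), with no overlap. All cortical thymocyte arrays were below their median for Cd86, and with the smaller offset the value was 4.34. Of all genes, 9.64% were called higher and 1.52% lower. Icos (0.13), Pdcd1 (0.08), Pdcd1lg2 (0.30) and Icosl (0.50) had intervals that spanned 0, though the dimmest Icos probe set gave -0.78 (adjusted p = 0.0006). Btla (0.50, adjusted p = 1.7e-05), Cd28 (-0.50, 0.00042), Cd274 (0.64, 0.0054) and Cd80 (0.87, 0.026) passed the p threshold but were under 2-fold. Cd40lg (0.77) had an adjusted p of 0.069. The second probe sets of Cd28 and Cd80 gave -0.05 and -0.17. Markers of several cell types stood beside the Cd86 signal. Macrophage markers had a sum over 8 genes of 10765 in whole cortex and 406 in cortical thymocytes. Cortical epithelial markers had 71279 and 6782 over 7 genes, and dendritic cell markers 1311 and 307 over 10. Called higher were 8 of 8 macrophage, 7 of 7 cortical epithelial and 5 of 10 dendritic cell genes. Among medullary epithelial genes 3 of 8 were, among endothelial genes 1 of 4 and among B cell genes 0 of 7. None of these was called lower. The part of these cell types in the Cd86 signal was not tested. Without the arrays with a wide tail, Cd80 (1.85) and Cd274 (1.05) were called too.

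The depth of the cortex was followed over the 3 subregions, from the capsule to the medulla. Icos and Btla had the largest fold changes of the members. Icos had 673, 651 and 679.7 in subcapsular cortex, 1807, 1971 and 1516 in central cortex, and 3830.2, 3938 and 4158 in perimedullary cortex. No region overlapped another, and each step was called, with log2 fold changes of 1.36 (SE 0.13) for central against subcapsular, 1.17 (SE 0.13) for perimedullary against central and 2.53 (SE 0.13, adjusted p = 3.1e-16) for perimedullary against subcapsular. Btla had 371, 355 and 358 in subcapsular cortex, 549, 603 and 722 in central cortex, and 1900.1, 1496 and 1576 in perimedullary cortex. The regions were again apart, with 1.37 (SE 0.12) for perimedullary against central and 2.11 (SE 0.12, adjusted p = 3.3e-15) for perimedullary against subcapsular, while the first step of 0.74 was under 2-fold. For Icos, the step from central to perimedullary cortex was not called with its dimmest probe set (0.47, adjusted p = 0.54) or with the mean of its probe sets (0.91).

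Among the ligands, Cd86 had 227, 185 and 208 in subcapsular, 319, 292 and 294 in central and 749, 547 and 603 in perimedullary cortex. It rose between the outer and the inner region by 1.49 (SE 0.22, adjusted p = 7.5e-06), though its second probe set gave 0.94, which is under 2-fold. Cd274 had 972, 511 and 416 in subcapsular, 689.8, 480.1 and 1036 in central and 1819.9, 1044 and 1113 in perimedullary cortex. Its perimedullary rise of 1.08 (SE 0.26, adjusted p = 0.0028) fell under 2-fold without subcapsular array 2 (0.98) or 3 (0.84), without perimedullary array 1 (0.84), and under quantile normalization (0.97). Across the same distance Pdcd1lg2 (0.91, adjusted p = 0.011) passed the p threshold but was under 2-fold. It was called with the smaller offset (1.10, adjusted p = 0.0086) and in 2 of 6 fits that left out 1 array. Icosl (0.9994, adjusted p = 0.18) and Cd80 (0.59, adjusted p = 0.43) were not called.

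Cd28 had 4284, 4590.4 and 3857 in subcapsular, 6280.0, 6078 and 6580.4 in central and 5737, 6566 and 6306 in perimedullary cortex. It was lowest in the subcapsular arrays, without overlap, but the differences of 0.57 and 0.55 were under 2-fold. Pdcd1 (0.49) was not called across the depth, and Cd40lg (-0.17, 95% interval -1.13 to 0.80) was below the array median on all 9 subregion arrays.

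The members called higher were 4 of 10 for perimedullary against subcapsular cortex, where 2.94% of all genes were called higher and 1.66% lower. They were 2 of 10 for perimedullary against central cortex, where these shares were 1.34% and 0.0371%, and 1 of 10 for central against subcapsular cortex, with 0.446% and 0.876%. None was called lower in any of the 3. The median log2 fold changes of the members were 0.96, 0.67 and 0.29 in that order. Mature thymocyte markers moved over the same distance, with a sum over 6 genes of 14538 in perimedullary and 2368 in subcapsular cortex. So did dendritic cell markers, with 3244 and 799, macrophage markers, with 18859 and 8315, and B cell markers, with 2812 and 905. These sums are carried by the brightest genes. Called higher were 6 of 6 mature thymocyte, 4 of 10 dendritic cell and 3 of 7 B cell genes, and none of these was called lower. Of 8 macrophage genes, 4 were called higher and 1 lower. The part of these cell types in the results was not tested.

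**Figure D5:**
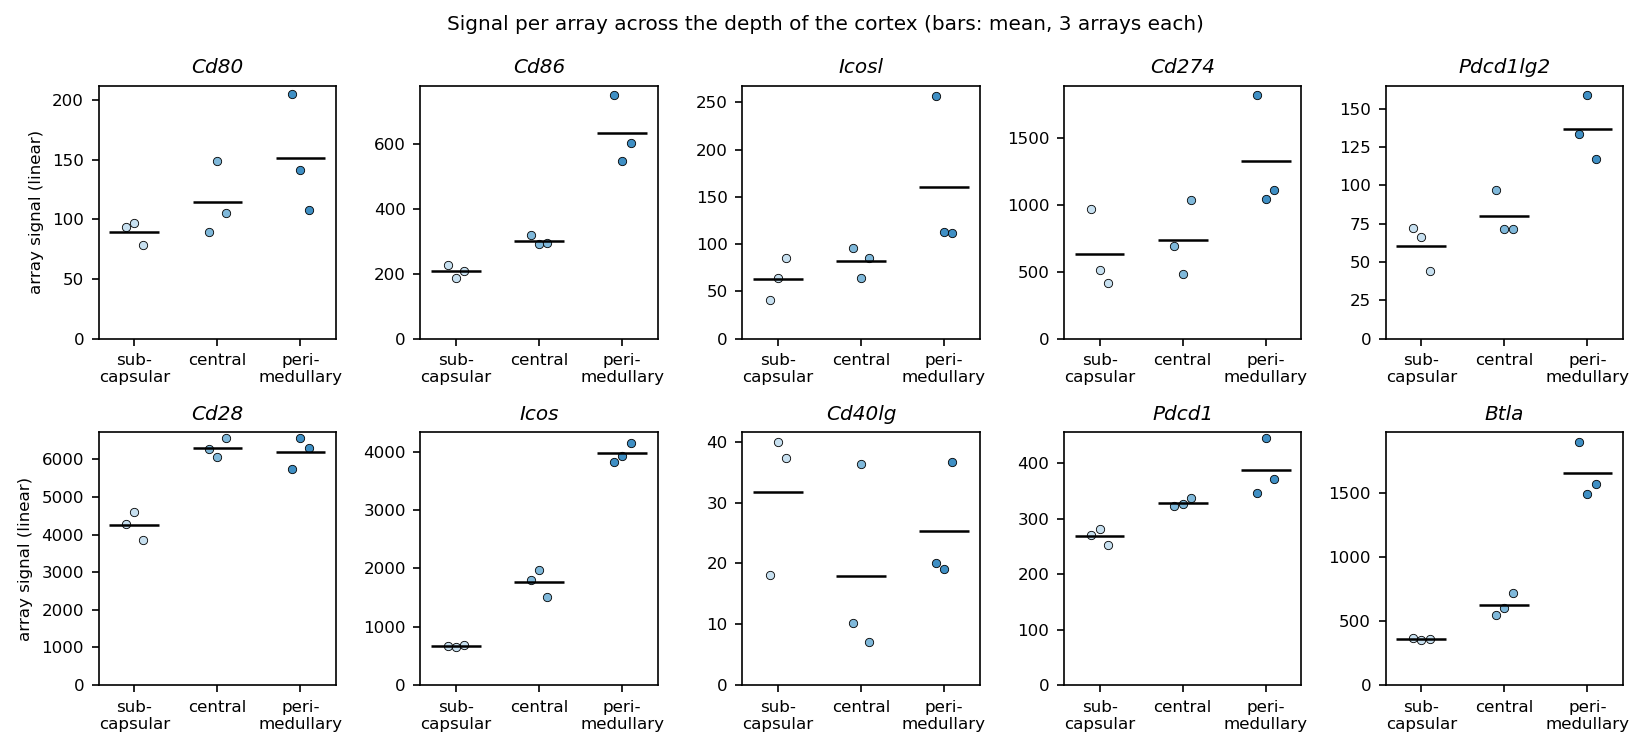
Signal of each member on the 3 arrays of subcapsular, central and perimedullary cortex (points, linear axis from 0) with the mean (bar). Icos and Btla step up at each region, Cd86 is highest in perimedullary cortex, and Cd28 is lowest in subcapsular cortex.

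Across whole medulla, whole cortex and both kinds of sorted thymocytes, the order of the levels differed between the members. Icos, Btla, Pdcd1, Cd28 and Cd40lg each had their highest mean in medullary thymocytes. For Icos, Pdcd1 and Cd28 these arrays stood apart from the other 3 groups, whereas for Btla they overlapped whole medulla and for Cd40lg both whole tissues. Icosl, Pdcd1lg2, Cd86 and Cd274 had their highest mean in whole medulla, apart from the other 3 groups. Cd80 also had its highest mean there, with each neighbour in the order overlapping the next.

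Genes with the most similar profile over the 33 arrays were found for each member by Pearson correlation of the log2 signal. The arrays fall into tissue and sorted groups and share their scaling, and the subregions stand at other levels, so these values are descriptions. For Btla the nearest were Nlrc5 (r = 0.991), Ifi213 (0.985) and Itgae (0.979). For Icos they were Tnfrsf25 (0.971), Ifi209 (0.968) and Sema4a (0.964). For Cd86 they were Lgals3 (0.979), Lmo2 (0.964) and Ahnak (0.939), and for Pdcd1lg2 S100a4 (0.9504), Scg5 (0.9503) and Cdh17 (0.939). Icosl was closest to Gcnt1 (0.934), St6galnac2 (0.932) and Gas7 (0.922), and Cd274 to Hopx (0.921), Sh3bp5 (0.917) and Kif1b (0.917). Pdcd1 was closest to Klk8 (0.921), Cd28 to Itgal (0.871), Cd80 to Slco5a1 (0.869) and Cd40lg to Zfp619 (0.682). Among the members themselves, the highest values were 0.919 for Icos with Btla, 0.827 for Pdcd1 with Btla and 0.825 for Icosl with Pdcd1lg2.

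Other genes of the same pathways were read from lists. Of 17 other receptors tested of 20, 8 rose and 1 fell in whole medulla, and 10 rose and 1 fell in medullary thymocytes. Of all genes, 18.7% were called higher and 5.39% lower in the tissue comparison, and 7.69% and 6.31% in that of thymocytes. Ctla4, the inhibitory receptor of CD80 and CD86 that lies between Cd28 and Icos, had 693 ± 67.1 in whole medulla and 242 ± 47.9 in whole cortex (log2 fold change 1.44, adjusted p = 6.4e-12). It had 586 ± 68.1 in medullary and 199 ± 37.7 in cortical thymocytes (1.45, adjusted p = 5.7e-10), and the interaction was -0.01 (SE 0.2). Tnfrsf4, which encodes OX40, rose by 3.04 in tissue and 3.28 in thymocytes. Cd160, another receptor of the herpesvirus entry mediator, rose by 1.99 in thymocytes and was not called in tissue (0.75), with an interaction of -1.24 (adjusted p = 0.0027). Tnfrsf14, which encodes the mediator itself, was on the array and did not pass the filter.

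Of 14 other ligands and partners tested of 17, 8 rose in whole medulla and 4 in medullary thymocytes, and none fell in either. The shares of all genes called higher were 18.7% and 7.69%. Cd40, the receptor of CD40 ligand, had 1887 ± 264 in whole medulla and 199 ± 59.0 in whole cortex (log2 fold change 3.12, SE 0.19, adjusted p = 1.8e-16). In sorted cells it was weak, at 35.6 ± 22.8 in medullary and 13.4 ± 13.5 in cortical thymocytes, and not called (0.60). The interaction was 2.52 (SE 0.29, adjusted p = 1.6e-08). Tnfsf14, which encodes LIGHT, another partner of the herpesvirus entry mediator, was weak at 88.6 in whole medulla and 32.5 in whole cortex and rose by 1.08. Cd70, the ligand of CD27, rose by 2.62 in tissue, and Icam1, an adhesion ligand, by 2.87. Cd200, the neighbour of Btla, rose by 1.98 in tissue and by 2.48 in thymocytes.

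Marker genes of several cell types moved with the ligands between whole medulla and whole cortex, where 18.7% of all genes were called higher and 5.39% lower. Of 10 dendritic cell genes, 9 rose, and their sum lay between 26294 and 44763 in whole medulla and between 1046 and 1525 in whole cortex. Of 8 medullary epithelial genes, 7 rose (17293 to 19819, against 1145 to 1810 in whole cortex). Of 7 B cell genes, 5 rose (2764 to 5245, against 917 to 1577), and of 8 macrophage genes, 4 rose and 1 fell (28260 to 37138, against 8312 to 12002). Of 6 mature thymocyte genes, all rose (36639 to 45917, against 2854 to 4139). Of 6 genes of regulatory T cells, 4 rose and 0 fell in whole medulla, and 4 rose and 1 fell in medullary thymocytes. Their part in the rise of Icosl, Pdcd1lg2, Cd274, Cd86, Cd80, Icos and Btla was not tested.

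The 13 arrays with a wide upper tail were left out to see what they carried. Without them, whole medulla against whole cortex gave 3.41 for Icosl, 2.98 for Btla, 2.86 for Icos, 2.64 for Pdcd1lg2, 1.33 for Cd86 and 1.32 for Cd274, all still called, and only Cd80 lost its call. Between medullary and cortical thymocytes the 7 called members gave 1.21 to 3.60 and stayed called. Icosl, not called with all arrays, then reached 1.28 (adjusted p = 0.0081), from the 2 remaining medullary thymocyte arrays at 109.5 and 131.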

How the data were processed

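RNA of 23 microdissected thymus samples and 10 sorted thymocyte samples was measured on 1 Affymetrix array each. Per the submitters' processing notes, the deposited intensity values come from Affymetrix Expression Console 1.0 with MAS5. Per the labels' protocols, RNA was isolated with RNAqueous Micro kits from tissue and with RNeasy Mini kits from sorted cells, and was primed with oligo-dT. Background settings and scan dates are not given in the sources used here. MAS5 scales each array on its own, so differences between arrays in the shape of the signal distribution remain in the values.

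From the deposited values, log2(signal + 26.2) was computed, where the offset is the 25th percentile of an array's signals, taken as the median of all arrays. Probe sets above their array's median on at least 3 arrays were kept (30045 of 45037). Of all probe sets, 34945 carry 1 gene symbol, 932 several and 9160 none, by GEO's platform annotation, and 34741 symbols were looked up in a RefSeq gene table, which changed 0. A gene was represented by its kept probe set with the highest mean, and 6423 genes had several. Linear models with 7 group means were fitted to all 33 arrays with limma 3.58.1 under R 4.3.3, an intensity-dependent prior for the spread and 26 residual degrees of freedom. Tests were 2-sided, and all adjusted p-values are limma's with Benjamini-Hochberg adjustment over 13463 genes. Values after ± are SDs over the arrays of a group. The fit was tested on simulated data.

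All 10 members were named in every group with every probe set. The rule for other genes took up to 4 called genes of each pathway list by size of change, in the tissue and in the thymocyte comparison. Their arrays had to be without overlap. Ctla4, Cd40, Cd160, Tnfrsf14 and Tnfsf14 were added, and the 3 genes most correlated with each member. Not all are described: Tnfrsf9, Havcr2, Cd2, Cd200r1, Tnfsf8 and Cd48, all called higher, were left out. For Pdcd1, Cd28, Cd80 and Cd40lg only the most correlated gene is named. Cell type markers such as Aire, C1qa, Cd3d, Zbtb46 and Itgax were chosen with their values known. The members, the lists and the alternatives were chosen with earlier results of these data known. The alternatives were a smaller offset, quantile normalization, a stricter filter and none, the mean of a gene's probe sets, a replicate block, a fit of the compared groups alone, the 13 arrays with a wide tail left out or used alone, and each array left out in turn. Other probe sets of a member were added as alternatives after seeing the data.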

Additional observations from a re-analysis of the deposited data

Results flagged for a closer look

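In groups of 4 or more arrays, 5 of the 40 combinations of member and group held 1 array far from the others, where chance flags about 1 in 20. Cd28 had 9792 on whole medulla array 1, with the nearest other array at 6849, and 20588 on medullary thymocyte array 2, with the nearest at 13913. Icosl had 495.6 on whole medulla array 1, below the next at 887.9, and Cd274 had 882 on whole medulla array 3, below the next at 1095. Btla had 560.8 on whole cortex array 3, above the next at 459.6. All 5 values lie on arrays with a wide upper tail.

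The compartment difference in tissue differed from that in sorted thymocytes, by the interaction term in limma, for Icosl (2.97), Cd80 (1.22), Pdcd1lg2 (1.19) and Cd40lg (-1.26). These 4 values are log2 units, tissue minus thymocytes.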

How the results depend on the processing

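Of 1514 member fold changes under the alternatives set with the design, 1439 kept direction and side of the threshold, 38 lost the call, 13 gained it and 24 changed sign. With the smaller offset of 6.55, Cd86 gained a lower call in the interaction (-1.77) where Cd40lg and Cd80 lost theirs, 3 genes were called lower in perimedullary against central cortex (5 with the full offset) and 2 members higher in whole cortex against cortical thymocytes (1 with the full offset). Under quantile normalization, 328 genes and 0 members were called lower in whole medulla against medullary thymocytes, against 166 and 1. The stricter filter tests 9046 genes and 8 members, leaving out Cd80 and Cd40lg. It called 1368 genes higher in whole medulla against whole cortex, 882 higher in the interaction with 0 members lower, 2 lower in perimedullary against central cortex, 1233 higher in whole medulla against medullary thymocytes and 768 higher in whole cortex against cortical thymocytes. The mean of the probe sets left 1 member called higher in perimedullary against central cortex, and a fit of only the groups compared left 0 members lower in the interaction. Without the arrays with a wide tail, 0 members were called lower in whole medulla against medullary thymocytes, and 3 members were called higher and 44 genes lower in whole cortex against cortical thymocytes. The cause of these changes was not tested, except where fewer genes were tested.

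Leaving out 1 array gave 0 to 1 members lower in the interaction and in whole medulla against medullary thymocytes, and 1 to 2 members higher in whole cortex against cortical thymocytes. It gave 1 to 5 genes lower in perimedullary against central cortex and 78 to 127 in central against subcapsular cortex. Signs changed near 0 when 1 array was left out for Cd40lg (-0.146 to 0.221) and Cd28 (-0.052 to 0.081) between whole medulla and whole cortex, Cd80 between thymocytes (-0.051 to 0.329), Cd28 between perimedullary and central cortex (-0.069 to 0.028) and Cd274 between central and subcapsular cortex (-0.040 to 0.577). Other settings changed signs too. Quantile normalization gave -0.29 for Cd40lg between whole medulla and whole cortex, -0.015 for Cd80 between thymocytes and 0.012 for Cd28 between perimedullary and central cortex. The mean of the probe sets gave -0.13 for Cd28 in whole medulla against whole cortex, -0.00020 for Cd80 between thymocytes and -0.20 for Icos in whole cortex against cortical thymocytes. Without the arrays with a wide tail, Cd274 had -0.13 in the interaction and Pdcd1 -0.077 in whole cortex against cortical thymocytes, and with only those arrays Cd40lg had -0.065 between whole medulla and whole cortex.

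Probe sets other than the brightest, chosen after seeing the data, changed further signs. The second of Cd80 gave -0.16 between thymocytes and -0.17 in whole cortex against cortical thymocytes. The second of Icosl gave -0.0037 between whole medulla and whole cortex, -0.34 in the interaction, -0.090 in perimedullary and -0.14 in central against subcapsular cortex. The dimmest of Icos gave -0.78 in whole cortex against cortical thymocytes, and the second of Cd28 gave -0.31 between whole medulla and whole cortex.

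Replicate numbers were not taken as pairs, since not every pair correlated above 0.1, and whether same-numbered samples share a source is not settled: the deviations of same-numbered arrays of whole medulla and whole cortex correlated between -0.033 and 0.257, with 4 of 7 pairs above 0.1 (median 0.108, and -0.037 for other pairs). The replicate block changed 0 of the 80 member calls. With it, 271 genes were called lower in whole medulla against medullary thymocytes and 373 in whole cortex against cortical thymocytes, against 166 and 205 without it. Weak signals limit Cd40lg, Cd80 and Icosl in sorted cells, where most arrays lie below their median, and Cd86 in cortical thymocytes, where all do.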
